A study of Mus musculus with 13 samples.

Results

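The receptors of the EGF family, their ligands and the related receptor *Met* were examined in 4T1-Thy1.1 cells, a mouse mammary carcinoma line that carries a Thy1.1 transgene as a surface tag. The genes were chosen by name: the receptors *Egfr*, *Erbb2*, *Erbb3* and *Met*, and the ligands *Areg*, *Ereg*, *Hbegf* and *Tgfa*. Of these 8 genes, 7 were listed among the 13222 genes of the table and *Ereg* was not analysed here. Bulk RNA was sequenced in 13 libraries of 4 groups. The labels give DMEM/F12 with serum as the medium, and the methods of the study give RPMI with serum for the line. The control group (n = 3) received no drug, the DOX group (n = 4) received 200 ng/mL doxorubicin, the DOX+IL-17A group (n = 3) received 200 ng/mL doxorubicin with 25 ng/mL recombinant mouse IL-17A, and the IL-17A group (n = 3) received 25 ng/mL IL-17A alone, each for 48 hours. The study asked how IL-17A, a cytokine of T cells, alters the response of these cells to doxorubicin, a DNA-damaging anthracycline. All libraries come from a single line, and the labels do not say whether the wells came from separate experiments, so p-values measure the spread between these libraries.

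Receptors of the EGF family are tyrosine kinases that pair on binding a ligand and signal mainly through the RAS-ERK and PI3K-AKT cascades. ERBB2 binds no known ligand and acts as a partner, ERBB3 has little kinase activity of its own, and MET is the receptor of hepatocyte growth factor. The ligands are made as membrane-bound precursors and are released by proteases of the ADAM family. Amplified ERBB2 defines a class of human breast cancer, and amphiregulin, encoded by *Areg*, is the main ligand of EGFR in the growing mammary duct.

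Promoter sequences are shown for *Areg* and *Erbb2*, the member that rose most and the one that fell most with doxorubicin among those that passed the filter on low reads. Both are from mm10 (GRCm38), plus strand, 5′ to 3′. That of *Areg* lies directly before the RefSeq start of the gene. That of *Erbb2* ends directly before the first base of the gene in GENCODE (98412470), which itself lies before the RefSeq start. Capitals mark the cyclic AMP response element (TGACGTCA) and the TATA box (TATAAA). The *Areg* stretch, chr5:91139349-91139598, holds 250 bases with a GC content of 57.2%, and the *Erbb2* stretch, chr11:98412234-98412469, holds 236 bases with a GC content of 65.7%.
Areg: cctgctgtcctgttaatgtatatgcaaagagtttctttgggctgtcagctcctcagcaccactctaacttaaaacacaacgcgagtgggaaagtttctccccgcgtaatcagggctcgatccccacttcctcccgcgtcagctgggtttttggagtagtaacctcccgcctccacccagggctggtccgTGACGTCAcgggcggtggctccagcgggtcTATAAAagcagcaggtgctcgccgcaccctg
Erbb2: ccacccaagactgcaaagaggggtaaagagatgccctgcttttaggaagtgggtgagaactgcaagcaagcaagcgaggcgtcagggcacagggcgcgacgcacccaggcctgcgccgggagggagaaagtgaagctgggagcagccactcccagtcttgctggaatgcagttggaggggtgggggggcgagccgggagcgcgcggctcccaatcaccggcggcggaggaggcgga

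A search of both strands covered 250 bases before to 50 after the start in the 5 members that had a RefSeq window (*Areg*, *Met*, *Tgfa*, *Egfr* and *Erbb2*). The motifs were chosen after the sequences had been seen. The response element began 61 bases before the *Areg* start and was in no other member, while 1.79% of 32851 mouse windows held it. The TATA box began 31 bases before the *Areg* start and was in 13.6% of windows. The AP-1 motif TGANTCA, held by 7.81% of windows, was in *Met* only, where it began 54 bases before the start. The GC box GGGCGG, held by 35.7% of windows, occurred 3 times in *Met*, 2 times each in *Areg* and *Tgfa* and 1 time in *Egfr*, and in *Areg* it began 52 bases before the start, next to the response element. The *Erbb2* window held none of the 4 motifs. A match is a description of letters and was not tied to binding in these cells.

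The values are read counts divided by a TMM-scaled library size, on the scale usually called CPM. Because only the 3′ ends of transcripts were sequenced, a value does not grow with transcript length. Levels of different genes are set side by side on this ground only, and other differences in how genes are counted were not checked. Reads on listed genes ranged from 4445592 to 16930600 per library (median 9077387), and 3 reads, taken as the smallest detectable amount, correspond to 0.183 to 0.613 units. This limit covers counting error only. All 7 markers of mammary epithelium were listed, with summed values of 869 to 2325, and *Thy1* was at 63.6 to 179. In DOX replicate 1 the 9 skeletal muscle genes summed to 260.0 and the 3 listed red blood cell genes to 66.5, against 9.69 to 48.9 and 0 to 14.4 in the other libraries. The fibroblast sum (4 of 5 genes listed) was 23.8 to 97.8, and the immune sum (2 of 5 listed) was 0.314 to 3.87. In bulk RNA, fewer cells of a type and less RNA per cell cannot be told apart.

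In untreated cells the 2 genes with the highest levels of the family were a receptor and a ligand, *Met* at 308 ± 32.7 and *Hbegf* at 126 ± 35.5 (SD, n = 3). *Erbb2* followed at 21.3 ± 5.65. *Tgfa* at 9.16 ± 0.715, *Areg* at 8.35 ± 1.11 and *Egfr* at 6.99 ± 0.795 lay close together, and neighbours among these 3 overlapped in their libraries. *Erbb3* was last at 2.13 ± 2.30. With DOX the order changed. *Met* (149 ± 7.37) and *Hbegf* (140.2 ± 15.8, n = 4) overlapped at the top, *Areg* (28.2 ± 3.44) came next and clear of all others, and *Erbb2* (7.55 ± 0.418), *Egfr* (5.54 ± 0.418) and *Tgfa* (4.50 ± 0.961) followed, the last 2 of these overlapping. With DOX+IL-17A the order was that of DOX, and with IL-17A alone *Met* and *Hbegf* were again first and second with *Erbb2* after them.

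**Figure D1:**
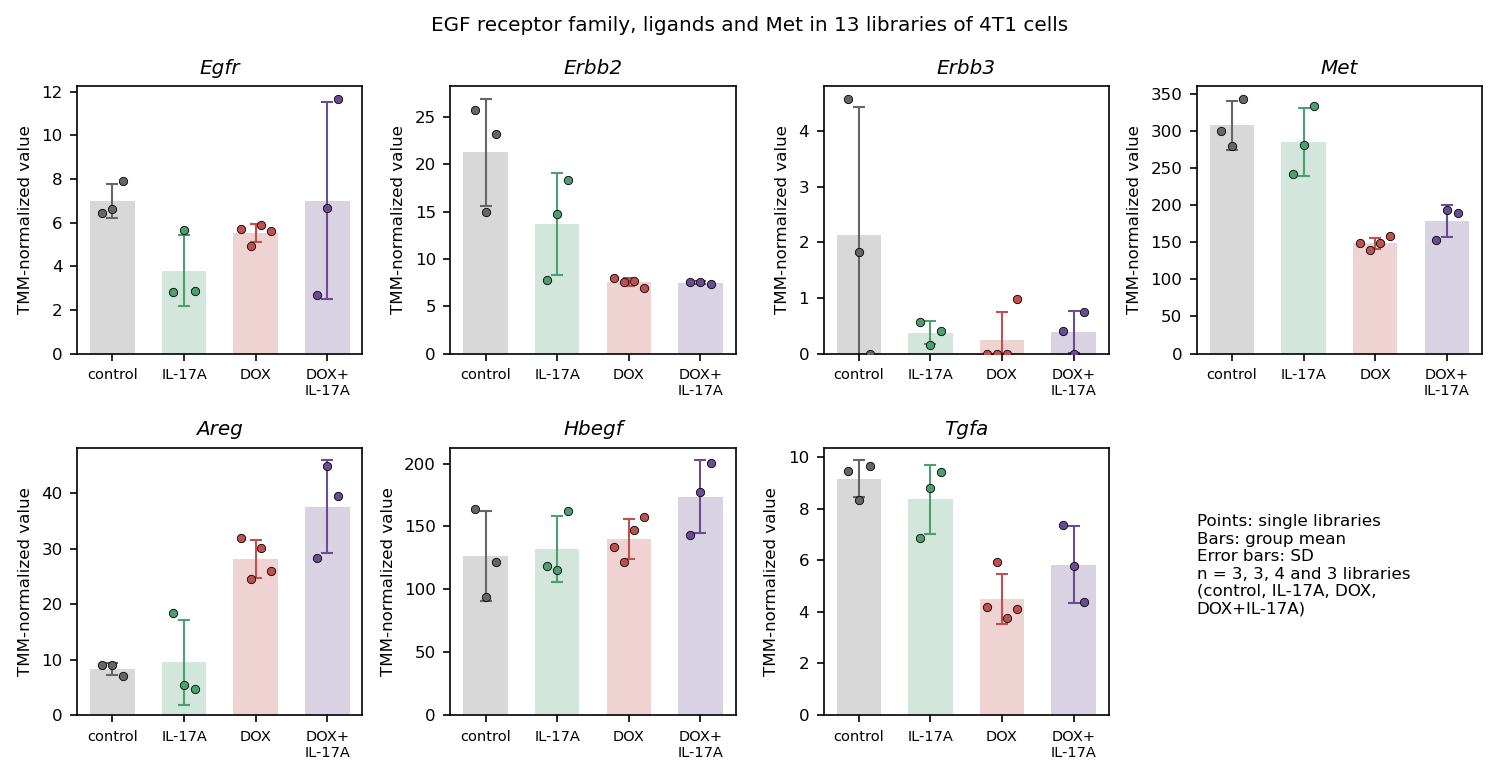
TMM-normalized values of the 7 listed genes in each library (points), with the group mean (bars) and SD (error bars) for control, IL-17A, DOX and DOX+IL-17A (n = 3, 3, 4 and 3). *Areg* stands at 24.6 or more in every library with doxorubicin and at 18.4 or less in every library without it, while *Met* is at 193 or less with doxorubicin and at 242 or more without.

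Doxorubicin lowered the receptor genes *Erbb2* and *Met* and raised the ligand gene *Areg*, with fold changes of their means of 0.355, 0.484 and 3.38. *Tgfa* also had a lower value, with a fold change of its means of 0.491. In the test, which adds 1 to each value, its log2 fold change was short of a 2-fold change. *Hbegf* and *Egfr* did not pass the test. Genes were tested with limma on log2(value + 1) across the 12319 genes that passed a filter on low reads, and were called at an adjusted p under 0.05 with a fold change above 2. The pseudocount of 1 understates the change of genes with low values. Of the 7 listed members, 6 passed the filter and 3 were called, 1 higher and 2 lower, while 15.3% of all genes tested were called in this comparison, 9.15% higher and 6.18% lower. The adjusted p alone was passed by 4 members, against 22.1% of all genes. The groups did not overlap for 5 of the 6 members, against 33.7% of all genes. The members were chosen with results of these data known, so these counts describe them only.

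*Erbb2* (chr11:98412470-98437716, plus strand) encodes the ligandless partner receptor of the family. It was at 25.7, 14.9 and 23.2 in control replicates 1, 3 and 5, and at 7.97, 7.55, 7.69 and 6.97 in DOX replicates 1 to 4. Every DOX library lay below every control library, and the 4 DOX libraries were nearly level while the controls were spread. The log2 fold change was -1.35 ± 0.31 (SE, limma adjusted p = 0.0066). Between 55 and 99 reads per DOX library and between 152 and 245 per control library lay behind these values.

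*Met* (chr6:17463800-17573980, plus strand) was the best covered receptor, with at least 752 reads in each library. It was at 299.8, 279.8 and 344 in control and at 148, 140.3, 148 and 158 with DOX. The groups were far apart relative to the spread within them. The log2 fold change was -1.04 ± 0.17 (SE, limma adjusted p = 9.0e-04). Its size is close to the 2-fold line. It fell short of that line without control replicate 5 (-0.96, adjusted p = 0.0073) and with scaling by library size only (-0.86, adjusted p = 0.0025). The same held with the replicate number as a block (-0.95, adjusted p = 0.0071).

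*Egfr* (chr11:16752203-16918158, plus strand), the receptor that gives the family its name, had low values. It was at 6.43, 6.64 and 7.90 in control and at 5.71, 4.93, 5.87 and 5.63 with DOX. All DOX libraries lay below all controls, but the gap was small and the change did not pass the test (log2 fold change -0.29 ± 0.38, 95% interval -1.10 to 0.53, limma adjusted p = 0.62). An exact permutation test over the libraries gave p = 0.0571, 2-sided, the smallest that 4 against 3 libraries allow.

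*Erbb3* (chr10:128567523-128589652, minus strand), the receptor with little kinase activity, was near the detection limit and did not pass the filter on low reads. It had 27, 30 and 0 reads in control replicates 1, 3 and 5, no reads in DOX replicates 1 to 3 and 11 reads in DOX replicate 4. In DOX+IL-17A replicates 2, 3 and 5 it had 2, 0 and 12 reads, and in IL-17A replicates 2, 3 and 5 it had 5, 1 and 5. Both control libraries with reads stood above every other library, but the control group itself reached from 0 to 4.57 units, so the groups overlapped. The exact permutation p against control was 0.29 for DOX and 0.40 for DOX+IL-17A and IL-17A, 2-sided.

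*Areg* (chr5:91139599-91148432, plus strand) encodes amphiregulin. It was at 8.97, 9.01 and 7.07 in control and at 32.0, 24.6, 30.2 and 26.0 with DOX. The lowest DOX library was well above the highest control, and both groups were narrow. The log2 fold change was 1.64 ± 0.36 (SE, limma adjusted p = 0.0053). Leaving out any single library kept it between 1.54 and 1.70, called in 13 of 13 such fits.

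*Tgfa* (chr6:86195223-86275719, plus strand) encodes transforming growth factor alpha, another ligand of EGFR. It was at 9.47, 8.34 and 9.67 in control and at 4.19, 5.91, 3.77 and 4.11 with DOX. The groups did not overlap, and DOX replicate 2 was the highest of its group. The log2 fold change was -0.90 ± 0.29 (limma adjusted p = 0.037), under the 2-fold line. With single libraries left out, the adjusted p was above 0.05 in 7 of 13 fits, while voom with limma gave -1.01 (adjusted p = 0.042), past both thresholds.

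*Hbegf* (chr18:36504927-36515805, minus strand) encodes heparin-binding EGF-like growth factor, the ligand gene with the highest level here. It was at 164, 93.5 and 122 in control and at 134, 122, 147 and 158 with DOX. The DOX libraries lay within the range of the controls. The log2 fold change was 0.18 ± 0.22 (95% interval -0.28 to 0.64, limma adjusted p = 0.58), and it was -0.02 without control replicate 3.

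The epithelial marker sum moved with *Erbb2* and *Met*. It was 1978 to 2325 in control and 985 to 1095 with DOX. Of its 7 genes 2 were called lower, *Epcam* (an adhesion molecule) and *Krt19* (a keratin), against 6.18% of all genes. The other epithelial markers were not called. Its part in the change of the receptors was not tested. DOX replicate 1, the library high in muscle and red blood cell genes, was inside the range of its group for *Egfr*, *Met*, *Hbegf* and *Tgfa* and was the highest of its group for *Erbb2* and *Areg*. Both of these were also called without it.

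When IL-17A was added to doxorubicin, the contrast with control kept the same outline. *Areg* was at 28.4, 44.9 and 39.5 in DOX+IL-17A replicates 2, 3 and 5, all above the controls, and rose by a log2 fold change of 2.03 ± 0.39 (limma adjusted p = 0.0029), or 4.50-fold in the means. *Erbb2* was at 7.57, 7.55 and 7.30, with the smallest SD of any listed member in any group (0.147), and fell by 1.36 ± 0.33 on the log2 scale (adjusted p = 0.011). With only the groups compared in the fit, the log2 fold change of *Erbb2* was the same and its adjusted p was 0.062. *Areg* and *Erbb2* were called, 2 of the 6 tested members, while 12.9% of all genes were called, 6.95% higher and 5.95% lower. *Met* was at 154, 193 and 189, below all controls, and its log2 fold change of -0.78 ± 0.18 (adjusted p = 0.0098) did not reach 2-fold. Counted by the adjusted p alone, 3 members passed, against 17.7% of all genes.

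The remaining members did not pass the test against control in the presence of both agents. *Tgfa* was at 7.36, 5.76 and 4.37, again below every control, with a log2 fold change of -0.59 ± 0.31 (adjusted p = 0.20). *Hbegf* was at 143, 178 and 201, overlapping the controls, with 0.48 ± 0.23 (adjusted p = 0.17). *Egfr* had the widest spread of the tested members relative to its mean in this group (64.6%), and its values of 2.66, 6.65 and 11.7 reached below and above all controls, and the log2 fold change was -0.17 ± 0.41 (adjusted p = 0.81). *Erbb2*, *Met*, *Areg* and *Tgfa*, 4 of the 6, did not overlap between the groups, against 30.1% of all genes. This contrast and the one of DOX share the control libraries.

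Some markers of cell types moved with this contrast too. The epithelial sum was 869 to 1090 with DOX+IL-17A. *Epcam*, *Krt18* and *Krt19* were called lower, 3 of its 7 genes, against 5.95% of all genes. The other epithelial markers were not called. The immune sum was 3.18 to 3.87, against 0.426 to 1.86 in control. Only 1 immune gene was tested, *Ptprc*, the common leukocyte antigen, and it was called higher, against 6.95% of all genes. The fibroblast sum was not higher, at 41.3 to 53.2 against 43.2 to 97.8 in control. Of the 4 tested fibroblast genes only *Dcn* (decorin) was called, and it was higher. The part of these markers in the changes of *Areg*, *Erbb2* and *Met* was not tested.

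**Figure D2:**
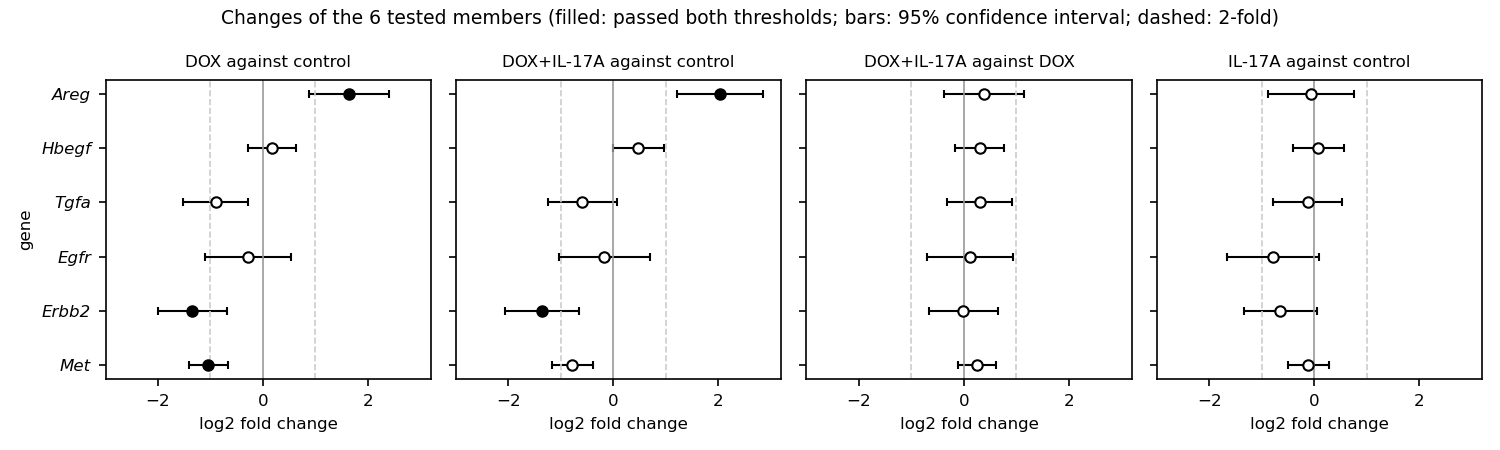
Log2 fold changes of the 6 tested genes with 95% confidence intervals in 4 comparisons, where filled points passed both the adjusted p and the 2-fold line (dashed). *Areg* and *Erbb2* are filled in both comparisons of doxorubicin with control (1.64 and 2.03, and -1.35 and -1.36), *Met* in that of DOX alone (-1.04), and no point is filled in the comparisons that add only IL-17A.

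IL-17A on top of doxorubicin, the contrast at the centre of the study, called none of the 6 tested members. limma gave 0 calls and 0 members at an unadjusted p under 0.05, and voom with limma, edgeR and DESeq2 gave 0 calls as well, while 0.438% of all genes were called by limma. An unadjusted p under 0.05 was reached by 782 of the 12319 genes. *Areg* differed from DOX by 0.39 on the log2 scale (95% interval -0.38 to 1.15), *Hbegf* by 0.30 (-0.16 to 0.76), *Tgfa* by 0.31 (-0.31 to 0.92) and *Met* by 0.26 (-0.11 to 0.62). These 4 and *Egfr* had higher means with both agents than with DOX. None of the 6 was free of overlap between the groups, against 10.3% of all genes. *Erbb2* differed by -0.01 (-0.67 to 0.64) and *Egfr* by 0.12 (-0.70 to 0.93). The intervals of *Met*, *Hbegf* and *Erbb2* exclude a 2-fold change of the value, and those of *Areg*, *Egfr* and *Tgfa* do not.

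IL-17A alone called no member either. Again limma gave 0 calls and 0 members at an unadjusted p under 0.05, the other 3 tools gave 0 calls, and 0.00812% of all genes, a single gene, were called. An unadjusted p under 0.05 was reached by 380 of the 12319 genes. *Egfr* had the largest difference: it was at 2.82, 5.66 and 2.87 in IL-17A replicates 2, 3 and 5, and every one of these libraries was below every control. The log2 fold change was -0.79 (95% interval -1.66 to 0.09, adjusted p = 0.96), and the exact permutation test gave p = 0.10, 2-sided, the smallest for 3 against 3 libraries. Groups that do not overlap occurred for 6.04% of all genes in this comparison. *Erbb2* was at 7.77, 14.8 and 18.4, with replicate 2 at the level of the DOX libraries and replicate 5 inside the range of the controls, and its log2 fold change was -0.65 (-1.35 to 0.05).

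The other 4 tested members overlapped between IL-17A alone and control. *Met* was at 242, 281 and 334, with a log2 fold change of -0.12 (95% interval -0.51 to 0.28). *Tgfa* was at 6.87, 8.80 and 9.43, with -0.12 (-0.78 to 0.53), and *Hbegf*, at 118, 116 and 162, differed by 0.08 (-0.41 to 0.57). *Areg* was at 18.4, 5.34 and 4.76. Replicate 2 was above all controls and the other 2 were below them, so the mean difference of -0.06 (-0.88 to 0.76) covers libraries on both sides, and without replicate 2 it was -0.62 (adjusted p = 0.85). Replicate 2 was thus the IL-17A library with the highest *Areg*, the lowest *Erbb2* and the lowest *Met*.

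In cells given IL-17A, doxorubicin raised *Areg* by a log2 fold change of 2.09 ± 0.39 (limma adjusted p = 0.0034), 3.96-fold in the means, and *Areg* was the single member called, against 9.84% of all genes (4.92% in each direction). *Met* fell by 0.67 ± 0.18 on the log2 scale (adjusted p = 0.026), short of 2-fold, so 2 members passed the adjusted p alone, against 13.3% of all genes. *Erbb2* differed by -0.71 ± 0.33 (adjusted p = 0.17). *Met* and *Erbb2* did not overlap between the groups either, as was the case for 32% of all genes. *Tgfa* (-0.47), *Hbegf* (0.40) and *Egfr* (0.62) did not pass the test. Whether the effect of IL-17A differed with and without doxorubicin was tested as an interaction, and 0 members passed at the adjusted p alone, 0 at an unadjusted p under 0.05, 0 with the other 3 tools, and 0% of all genes. An unadjusted p under 0.05 was reached by 556 of the 12319 genes. The interaction ranged from 0.22 for *Hbegf* (95% interval -0.45 to 0.89) to 0.90 for *Egfr* (-0.29 to 2.10).

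Ratios of reads within a library do not depend on how libraries are scaled, and were compared as a description. *Areg* had 0.732 to 1.08 reads per read of *Tgfa* in control and 4.17 to 8 with DOX, so *Areg* went from near parity with *Tgfa* to an excess. With DOX+IL-17A the ratio was 3.86 to 9.04. With IL-17A alone it was 0.504, 0.607 and 2.67, the last in replicate 2, and no library with doxorubicin was that low. Per read of *Erbb2*, *Areg* had 0.305 to 0.604 reads in control and 3.26 to 4.01 with DOX.

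*Met* had 1.83 to 2.99 reads per read of *Hbegf* in control, 2.04 to 2.43 with IL-17A, 1.002 to 1.15 with DOX and 0.943 to 1.09 with DOX+IL-17A. The libraries with and without doxorubicin were thus apart, and those with it were nearly at parity. The ratio of *Met* to *Erbb2*, both of which fell, was less clear. It was 11.7 to 18.8 in control and 18.6 to 22.7 with DOX, which overlapped. Among reads of the 6 listed EGF receptor ligands without neuregulins (*Areg*, *Hbegf*, *Tgfa*, *Btc*, *Epgn* and *Egf*), *Hbegf* held 81.0 to 85.4% in control and 70.6 to 75.4% with DOX. The share of *Areg* was 4.67 to 7.80% in control, 12.4 to 16.9% with DOX and 15.2 to 18.3% with DOX+IL-17A.

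**Figure D3:**
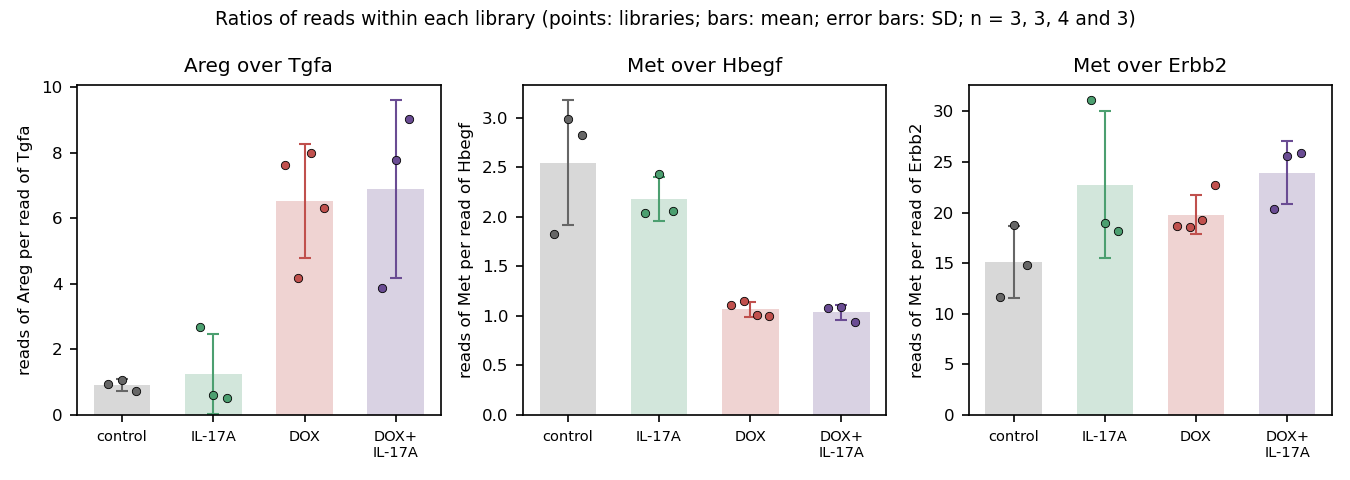
Reads of one gene per read of another within each library (points), with group means (bars) and SD (error bars; n = 3, 3, 4 and 3 for control, IL-17A, DOX and DOX+IL-17A). *Areg* over *Tgfa* is at 3.86 or more in every library with doxorubicin and at 2.67 or less without it, *Met* over *Hbegf* is at 1.15 or less with it and at 1.83 or more without, and *Met* over *Erbb2* overlaps between control and DOX.

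The wider pathway was described with a list of 97 genes in 10 roles, of which 87 were listed and 85 tested. With DOX 10 of the 85 were called (11.8%, beside 15.3% of all genes), 5 higher and 5 lower, and the list median of -0.08 lay beside a median of 0.09 over all genes. The calls were spread over several roles. Of the further ligands, 2 of the 5 tested were higher: *Btc* (betacellulin, a ligand of EGFR) and *Epgn* (epigen, a weakly binding EGFR ligand). None of 13 adaptors and none of 16 genes of receptor down-regulation were called.

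*Btc* was at 9.64, 4.51 and 5.42 in control and at 15.9, 14.5, 22.8 and 19.6 with DOX. These groups did not overlap, and the log2 fold change was 1.39 ± 0.35 (adjusted p = 0.011). *Epgn* had 0, 2 and 1 reads in control and 39, 34, 14 and 9 with DOX. The rise was seen in each DOX library (1.57 ± 0.36 on the log2(value + 1) scale, adjusted p = 0.0070), but its size depends on the pseudocount because control was within 3 reads. With DOX+IL-17A *Btc* was at 7.16, 15.1 and 13.7 and *Epgn* had 8, 10 and 9 reads, and neither was called against control (adjusted p = 0.16 and 0.12) or differed from DOX beyond the test (adjusted p = 0.95 and 0.92). In *Nrg1*, a neuregulin that binds ERBB3 and ERBB4, the means were 2.07 in control and 4.54 with DOX (adjusted p = 0.12). *Egf* had at most 13 reads in any library, and *Nrg2* had at most 31. *Mst1*, which encodes the ligand of a receptor related to MET, was below the filter, with at most 41 reads in any library.

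The largest change in the pathway list was in *Prss8*, which encodes prostasin, a membrane-anchored serine protease. It was at 20.5, 17.2 and 20.04 in control and at 3.22, 2.52, 1.96 and 1.88 with DOX. No DOX library came near a control library, and the log2 fold change was -2.59 ± 0.38 (adjusted p = 4.1e-04). With DOX+IL-17A it was -2.51 ± 0.41 (adjusted p = 0.0011), and the IL-17A libraries, at 9.80, 14.9 and 23.5, overlapped control. *Spred3*, of a family that restrains RAS-ERK signaling, and *Nf1*, which encodes a GTPase activator that switches RAS off, were next among the genes that fell with DOX (-1.48 and -1.24, adjusted p = 0.0090 and 0.0035). *Spred3* had 3 to 9 reads per DOX library and 19 to 43 per control library, so the size of its fall depends on the pseudocount. *Pik3r3*, a regulatory subunit of PI3-kinase, and *Phlda1*, a pleckstrin-homology protein induced by growth factors, rose (1.75 and 1.29, adjusted p = 0.024 and 0.0018).

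Against control, DOX+IL-17A called 7 of the 85 (8.24%, beside 12.9% of all genes), 2 higher and 5 lower, and with scaling by library size only 3 higher and 2 lower. The 2 that rose were *Elk1*, an ERK-responsive transcription factor (1.46 ± 0.30, adjusted p = 0.0045), and *Phlda1* (1.42 ± 0.25, adjusted p = 0.0020). After *Prss8*, the largest falls were in *Nf1* (-1.32) and *Spred3* (-1.19), the latter with 3 to 15 reads per DOX+IL-17A library. Against IL-17A alone 5 were called (5.88%, beside 9.84% of all genes), 3 higher and 2 lower (5 and 1 with scaling by library size only): *Btc* (1.25), *Errfi1* (1.17), an inhibitor of the EGFR kinase, and *Elk1* (1.04) rose, and *Prss8* (-2.19) and *Elk3* (-1.13), a partner of serum response factor, fell. IL-17A called 0 of 85 by limma both alone and on top of doxorubicin, with 2 genes each at an unadjusted p under 0.05 and 0 calls by voom with limma, edgeR and DESeq2. Among all 12319 genes limma called 0.00812% and 0.438% in these comparisons, and 380 and 782 had an unadjusted p under 0.05.

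**Figure D4:**
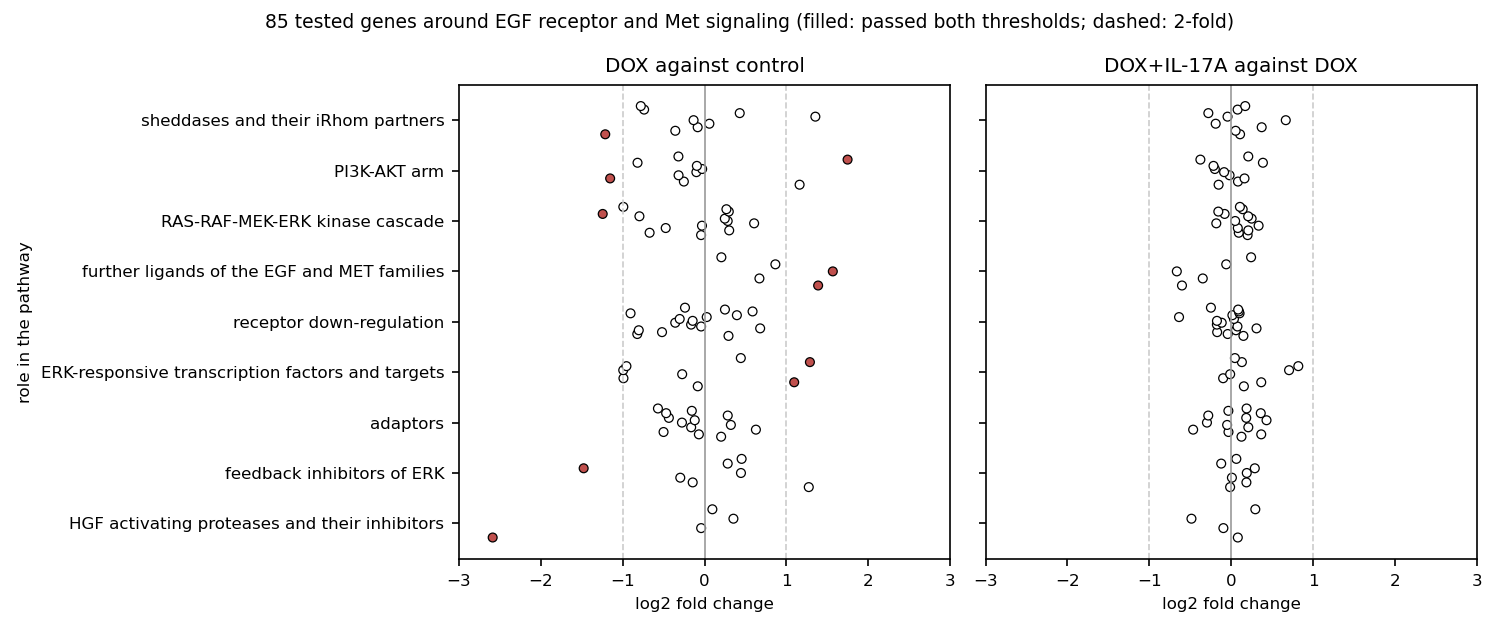
Log2 fold change (horizontal axis) of each of the 85 tested pathway genes, by role, for DOX against control and for DOX+IL-17A against DOX, where filled points passed both thresholds and dashed lines mark 2-fold. In the first panel 10 points are filled, from *Prss8* at -2.59 to *Pik3r3* at 1.75, and in the second none is filled and no gene reaches the dashed lines.

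*Areg* lies in a cluster of ligand genes on chromosome 5, and its neighbours were looked at after its values had been seen, so that the counts are a description with no test. Within 500 kb of its start lie 14 protein-coding genes, of which 11 were listed and tested. With DOX 9 of the 11 were higher past both thresholds and 1 was lower (8 of 10 higher without *Areg* itself), and 9.15% and 6.18% of all genes were called in these directions. Among the 9, *Cxcl3* was close to the threshold (limma adjusted p = 0.049), and its SD of 23.0 in DOX exceeded its mean of 13.8. *Cxcl5* had an adjusted p of 0.036. The cluster holds the EGF receptor ligands *Epgn*, 112 kb to the left, and *Btc*, 263 kb to the right, and the neutrophil-attracting chemokines *Cxcl1*, *Cxcl2*, *Cxcl3*, *Cxcl5* and *Ppbp* further left. *Parm1*, a mucin-like membrane protein gene, was higher by 2.45 ± 0.33 on the log2 scale in DOX and by 2.59 ± 0.35 in DOX+IL-17A. *Mthfd2l*, a mitochondrial folate enzyme between the chemokines and *Epgn*, fell (-1.70 ± 0.34), and *Rassf6* was not called (-0.57 ± 0.38).

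With DOX+IL-17A against control 6 of the 11 were higher, namely *Areg*, *Parm1* and 4 chemokine genes, beside 6.95% of all genes. The chemokines *Cxcl1*, *Cxcl2* and *Cxcl5* reached log2 fold changes of 4.39, 4.33 and 3.89, where DOX alone had 2.66, 2.51 and 1.60. IL-17A alone had 2.41, 1.24 and 3.10 for these chemokines, and none of them was called. The DOX libraries were widely spread, with *Cxcl5* at 1409 ± 1020 and *Cxcl1* at 261 ± 204 (SD). With DOX+IL-17A the ligand genes had 2.03 for *Areg*, 0.79 for *Btc* and 0.90 for *Epgn*, where DOX alone had 1.64, 1.39 and 1.57. No gene of the cluster passed both thresholds between DOX+IL-17A and DOX, in which *Cxcl5* came closest (2.29, adjusted p = 0.076).

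**Figure D5:**
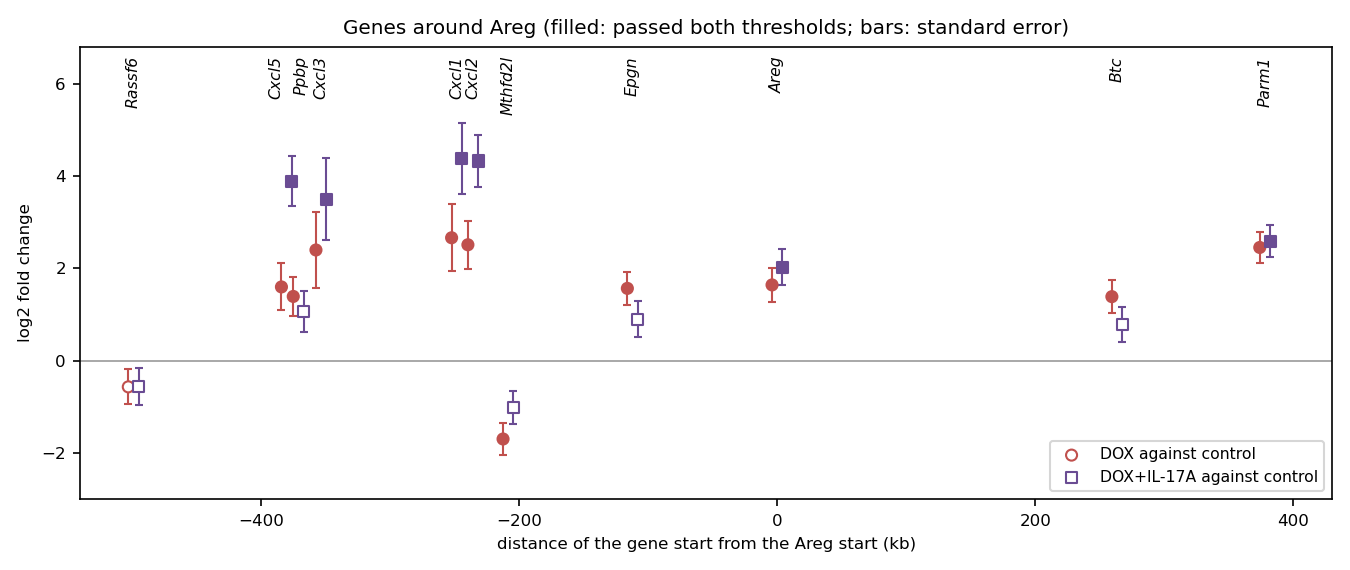
Log2 fold change against control (vertical axis, bars: standard error) of the 11 tested genes around *Areg* by distance of the gene start from the *Areg* start in kb, for DOX (circles) and DOX+IL-17A (squares), filled where both thresholds were passed. The 9 filled circles above 0 include *Areg* at 1.64, *Mthfd2l* at -1.70 is filled below it, and the squares of *Cxcl1*, *Cxcl2* and *Cxcl5* stand above their circles.

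The genes most like each called member were taken as those with the lowest root mean square difference between centred log2(value + 1) values over the 13 libraries. Closest to *Areg* were *Mindy3*, a deubiquitinase gene (0.287), and *Med22*, a Mediator subunit gene (0.345), where the median over 6207 candidate genes was 1.15. *Mindy3* had means of 12.3, 44.2, 51.5 and 14.0 in control, DOX, DOX+IL-17A and IL-17A. Closest to *Met* were *Cop1*, a ubiquitin ligase gene (0.108), and *Tmx4*, a thioredoxin-related membrane protein gene (0.135; median 0.698 over 11747 candidates). *Cop1* had means of 104, 52.2, 58.3 and 105. Closest to *Erbb2* were *Arhgap33* (0.164) and *Myh9*, the heavy chain gene of a non-muscle myosin (0.164; median 0.853 over 10565 candidates). *Arhgap33* was at 0 in all DOX and DOX+IL-17A libraries and reached no more than 2.24 in control, so that its likeness rests on few reads, whereas *Myh9* had means of 702, 287, 291 and 483.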

How the data were processed

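Total RNA of cultured cells was made into 3′ mRNA libraries. The authors checked the reads with FastQC, trimmed them with Trimmomatic, aligned them to mm10 with STAR, counted them per gene with featureCounts and normalized them by TMM. The deposited table gives a normalized signal per gene and library, of 13223 entries with 1 repeated entry dropped. In each library 100% of values divided by the value of 1 read gave whole numbers (tolerance 0.01), and the reads recovered this way were used for the low-count filter (filterByExpr) and for the count tests. Depth and its limit are given with the results. Libraries were grouped by their labels. limma, with a trend of the variance, was fitted to log2(value + 1) of all 13 libraries by group, with Benjamini-Hochberg adjustment over the 12319 genes tested. Calls were made at an adjusted p under 0.05 with more than a 2-fold change, and for the interaction at the adjusted p alone. Single values were compared by exact permutation tests, 2-sided.

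Alternatives were voom with limma, edgeR's quasi-likelihood test, DESeq2, scaling by library size only, no filter, a minimum mean of 10 reads, a pseudocount of 0.1, only the groups compared, a replicate block, leaving out each library, and calls by the adjusted p alone. Leaving out both libraries high in muscle genes, DOX replicate 1 (sum 260.0) and control replicate 1 (48.9, the next highest), was added after seeing the data. Replicate numbers come from the labels. Deviations from the group means correlated by 0.17, 0.20 and 0.35 in the 3 same-numbered pairs of DOX+IL-17A and IL-17A, and the block changed no member's call there.

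The members, gene lists and tests were chosen with earlier results of these data known. Named pathway genes are the 3 that rose and fell most among those called in each comparison, and listed further family ligands. Nearest genes were chosen among tested genes with an SD at least 0.5 times that of the member. Gene coordinates are from GENCODE on mm10, promoters from RefSeq (GRCm38.p6). The tests were checked on simulated data. The tools were DESeq2 1.42.0, edgeR 4.0.16 and limma 3.58.1 in R 4.3.3, and matplotlib 3.10.9, scipy 1.17.1, pandas 2.3.3 and numpy 2.4.6 in python 3.11.15.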

Additional observations from a re-analysis of the deposited data

Results flagged for a closer look

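*Erbb3* had reads in a single DOX library, replicate 4. This library had 11 reads of *Erbb3*, a value of 0.984, and the other 3 DOX libraries had 0, so that the gap made up the whole range of the group (Dixon's ratio 1, critical value 0.829 for 4 libraries). With the others at 0 the ratio is 1 for any number of reads, so it does not show that 11 reads stand apart. Of the genes named here 21 were checked in this way and 1 exceeded the limit, and chance gives about 1 in 20. No other member exceeded it in the DOX group.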

How the results depend on the processing

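Counts of called genes stayed within 1.5 times in 275 comparisons of an alternative with the reported count, and 9 moved further. The 275 include results with a reported count of 0 that stayed at 0, which say little about stability. A change from 3 to 2 members called with DOX also counts as within 1.5 times. With the fit of only the groups compared, 1 member (*Areg*) was called in DOX+IL-17A against control, where *Erbb2* was at -1.36 with an adjusted p of 0.062, and 4 pathway genes were called. With the adjusted p alone, 2 members passed in DOX+IL-17A against IL-17A, and 17 and 12 pathway genes passed for DOX and DOX+IL-17A against control. Pathway calls in DOX+IL-17A against IL-17A were 8 with DESeq2, 8 without both libraries high in muscle genes, and 3 to 9 when single libraries were left out (3 without IL-17A replicate 5, 9 without control replicate 1).

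Signs turned only for differences that no test called. *Egfr* in DOX+IL-17A against control was 0.093 with voom, 0.031 with edgeR and 0.017 with DESeq2, and between -0.59 and 0.31 when single libraries were left out. *Egfr* in DOX+IL-17A against DOX was then between -0.30 and 0.59. *Erbb2* in DOX+IL-17A against DOX was 0.0048 with DESeq2, 0.012 without both libraries high in muscle genes and -0.044 to 0.012 with single libraries left out. *Areg* in IL-17A against control was 0.18 with edgeR, 0.15 with DESeq2 and -0.62 to 0.25 with single libraries left out. *Hbegf* was then between -0.019 and 0.38 for DOX and between -0.11 and 0.29 for IL-17A against control, and its interaction was -0.0077 without both libraries high in muscle genes. The cause was not tested.

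With the replicate number as a block, *Met* with DOX was at -0.95 (adjusted p = 0.0071), below 2-fold, and 2 members were called, while *Areg* was at 1.52 (adjusted p = 0.037) and *Erbb2* at -1.16 (adjusted p = 0.048). The block changed no other member's call. Outside DOX+IL-17A and IL-17A, the 10 same-numbered pairs correlated by -0.18 to 0.49, with 5 over 0.1. Those of control and DOX correlated by 0.19 (replicate 1) and -0.03 (replicate 3). All 13 same-numbered pairs had a mean of 0.15, against -0.04 for the 50 pairs with different numbers. Whether libraries with the same number belong together was not tested. With scaling by library size only the median log2 fold change over all genes was 0.24 for DOX, 0.20 for DOX+IL-17A and 0.22 for DOX+IL-17A against IL-17A, in place of 0.09, 0.04 and 0.02, and 1 member rose and 1 fell with DOX. *Tgfa* with DOX passed both thresholds with voom, edgeR (-1.02), DESeq2 (-1.06), a pseudocount of 0.1 (-1.03) and without DOX replicate 2 (-1.01). Depth limits *Erbb3*, with at most 30 reads in a library, and *Egfr*, with 13 to 187.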
